A study of Mus musculus with 2 samples.

Results

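The Mir378 microRNAs (miRNAs) are a family of short regulatory RNAs, and 5 genes at or related to its main locus were examined in mouse calf muscle. The genes were chosen by their names in the GENCODE M21 annotation, as Mir378a, Mir378b, Mir378c and Mir378d, together with Gm25301, the miRNA gene annotated on the other strand at Mir378a. They are 5 of 2202 counted miRNA genes. The family was taken up because Mir378a held the most counts of any gene, so its level is a description and was not tested. The material was gastrocnemius of B6CASTF1/J F1 hybrid females, adult and 18 to 20 months old, from The Jackson Laboratory, sequenced by microRNA-seq from RNA under 30 bases as 2 libraries of 1 group. The labels number these as biological replicates 1 and 2, but give both the same donor entry, so the spread between them may be technical. No treatment or genetic change beyond the strain is given in the labels, and no control group enters the comparisons.

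A miRNA gene is transcribed into an RNA that folds into a hairpin, from which a short mature strand is cut. The mature strand guides silencing of messenger RNAs, mainly through its seed, which is bases 2 to 8 from the 5′ end. Mir378a lies inside Ppargc1b, the gene of PGC-1β, a transcriptional coactivator that promotes mitochondrial and lipid metabolism. Its products are known as regulators of oxidative metabolism and are abundant in muscle, brown fat and liver.

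The mature sequences of the minor members show how alike the family is, which bears on every count below. RefSeq (build GRCm38.p6) listed mature sequences for 3 of the 5 genes. They are given 5′ to 3′ with the seed in capitals.
Mir378b: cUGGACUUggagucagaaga
Mir378c: aCUGGACUuggagucagaagc
Mir378d: aCUGGCCUuggagucagaaggu

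The 3 sequences differed at few bases but carried 3 different seeds. Positions are counted from 1 at the 5′ end of the first sequence named. Mir378b started 1 base later than Mir378c, which shifted its seed by 1 base, and over the 20 bases that align the only difference was A20C from Mir378b to Mir378c. From Mir378c to Mir378d the differences were A6C, which lies within the seed, and C21G. None of the 3 seeds was also the seed of any other mature sequence searched. The seeds of Mir378b and Mir378c did each lie within the mature strand of the other, shifted by 1 base. The search covered 1624 mature names of counted genes but not those of Mir378a, so it does not show that the seeds are absent from Mir378a. The mature strand sat at bases 67 to 86 of the 92-base Mir378b hairpin, toward its 3′ end. It sat at bases 4 to 24 of 99 in Mir378c and at bases 16 to 37 of 110 in Mir378d, toward the 5′ end.

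Runs shared with Mir378a were long in 2 of the 3. The 66-base Mir378a hairpin shared a run of 20 bases with Mir378c, at bases 43 to 62 of Mir378a, and a run of 19 bases with Mir378b. The run of 20 is the first 20 bases of the mature Mir378c strand, so the Mir378a hairpin contains the seed sequences of both Mir378c and Mir378b. Mir378b and Mir378c also shared 19 bases with each other. The longest run between Mir378a and Mir378d was 15 bases. The longest run Mir378d shared with any counted hairpin was 16 bases, with Gm27881, an annotated miRNA gene on chromosome 1 (13262198 to 13262279, plus strand) that had 6 counts in replicate 1 and 13 in replicate 2. Gm25301 shared at most 12 bases with any hairpin on its own strand. A read that maps to more than 1 place enters no gene count here, so the counts of Mir378a, Mir378b and Mir378c can be lower bounds. Counts of the minor members can also be too high, if Mir378a reads with a sequencing error or altered end were assigned to them. That was not tested.

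The members differed in their genomic setting, and only Mir378a was read in the direction of a host gene. Coordinates are of mm10. Mir378a (ENSMUSG00000105200.1, chromosome 18, 61397835 to 61397900, minus strand) lay in intron 1 of all 3 Ppargc1b transcripts that contain it, 2389 bases after the end of exon 1. Mir378b (ENSMUSG00000092985.1, chromosome 11, 88352773 to 88352864, plus strand) lay opposite intron 11 of Msi2, which encodes an RNA-binding protein. Mir378c (ENSMUSG00000099036.1, chromosome 14, 46954830 to 46954928, minus strand) lay opposite a 131260-base intron of Samd4, another RNA-binding protein gene. Mir378d (ENSMUSG00000098756.1, chromosome 10, 126710282 to 126710391, minus strand) overlapped no annotated gene, and the nearest protein-coding gene, Atp23, was 158036 bases away. Mir378a and Gm25301 were the only counted miRNA genes within Ppargc1b. The messenger RNA of Ppargc1b was not analysed here, since the files count miRNA genes.

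The libraries held 865419 gene counts in replicate 1 and 2177048 in replicate 2, out of 6888732 and 12001270 reads. Multimapping reads made up 80.7% and 71.0% of all reads. Levels are counts per 1000000 gene counts (CPM), and intervals are exact Clopper-Pearson 95% intervals that cover counting error only. Muscle identity was checked with 6 striated muscle miRNAs, all of which had counts in both libraries. Their summed level was 40743 CPM in replicate 1 and 103501 CPM in replicate 2, nearly all of it Mir206. The Mir1a and Mir133a genes among them had 2 to 353 counts per library. Reads that map to more than 1 place enter no gene count, so these counts can be lower bounds. In bulk tissue, fewer cells of a type and less RNA per cell cannot be told apart.

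Mir378a took up nearly all counts of its family and more counts than any other miRNA gene in both libraries. It had 156965 counts in replicate 1, or 181375 CPM (interval 180563 to 182188). In replicate 2 it had 269902 counts, or 123976 CPM (123539 to 124415). Both libraries placed it first by counted reads, and replicate 1 was the higher. Reads that map to more than 1 place are left out of this ranking, so genes with many such reads can rank too low. The 4 family genes together held 18.2% of gene counts in replicate 1 and 12.4% in replicate 2, 15.3% ± 4.07 (SD, n = 2). Mir378a made up 99.84% of the family in replicate 1 (99.82 to 99.86) and 99.90% in replicate 2 (99.89 to 99.92).

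The lead in counted reads over the next genes was wide in replicate 1 and narrow in replicate 2. Mir206 of skeletal muscle and Mir22 came next by mean level, then the let-7 genes Mirlet7i and Mirlet7g and the smooth muscle miRNA Mir143. Mir378a exceeded Mir206 4.49-fold in replicate 1 and 1.20-fold in replicate 2. It exceeded Mir22 5.23-fold and 1.14-fold. Against Mirlet7i the excess was 3.16-fold and 2.38-fold, against Mirlet7g 3.25-fold and 2.32-fold, and against Mir143 2.69-fold and 3.53-fold. The lower of the Mir378a values, 123976 CPM, still stood above the highest value of any of these 5 genes, 108765 CPM for Mir22 in replicate 2. The means of Mir206 and Mir22 differed by less than the spread between the libraries, as did those of Mirlet7i and Mirlet7g. The same counts divided by the length of the annotated hairpin left Mir378a first, at 2313 CPM per base against 984 for Mir206, 815 for Mir143 and 755 for Mir22. That order rests on the counts by which Mir378a was chosen and is no separate support for its rank.

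The minor members were counted at far lower levels. Mir378a exceeded Mir378d 987-fold in replicate 1 and 1459-fold in replicate 2, Mir378c 2275-fold and 4820-fold, and Mir378b 8261-fold and 15877-fold. Mir378d, the highest of them, had 159 counts in replicate 1 and 185 in replicate 2, which is 184 CPM (156 to 215) and 85.0 CPM (73.2 to 98.1). Mir378c had 69 and 56 counts, or 79.7 CPM (62.0 to 101) and 25.7 CPM (19.4 to 33.4). Mir378b had 19 and 17 counts, or 22.0 CPM (13.2 to 34.3) and 7.81 CPM (4.55 to 12.5). The order Mir378d, Mir378c, Mir378b was the same in both libraries, and within each library no 2 of their intervals overlapped. Over both libraries Mir378d stood at 134 ± 69.8 CPM, Mir378c at 52.7 ± 38.2 CPM and Mir378b at 14.9 CPM, so that the means of Mir378d and Mir378c differed by little more than 1 SD and those of Mir378c and Mir378b by less (SD, n = 2). All 3 genes were the higher in replicate 1. By mean level they ranked 134, 178 and 253 among the 2202 genes. Per base of hairpin their levels were 1.22, 0.533 and 0.162 CPM per base, in the same order.

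**Figure D1:**
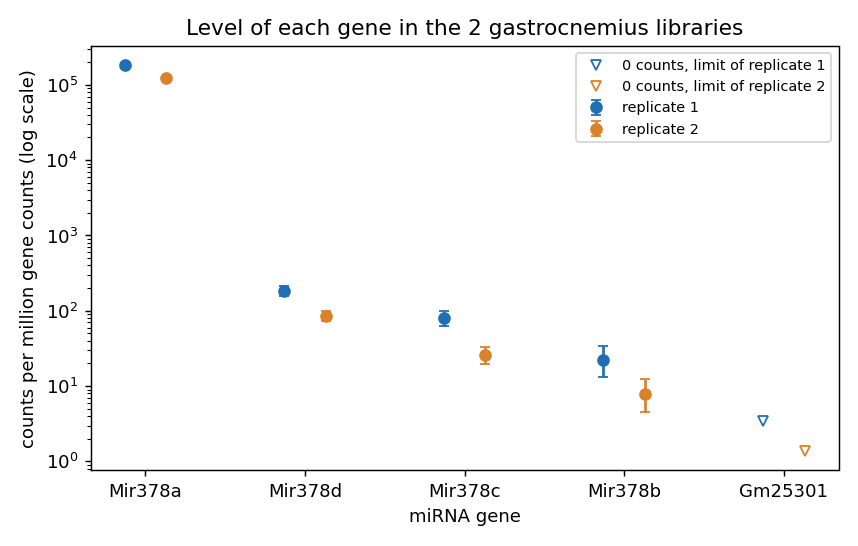
Level of each gene in CPM on a log axis, by library. Points are single libraries with exact 95% counting intervals (smaller than the point for Mir378a), and open triangles mark the 3-count limit of a gene with 0 counts. Mir378a stands at 181375 and 123976 CPM, Mir378d, Mir378c and Mir378b follow in that order in both libraries, and replicate 1 is the higher library for all 4.

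Gm25301 had 0 sense counts in both libraries, which allows a level of up to 3.47 CPM in replicate 1 and 1.38 CPM in replicate 2. It spans 113 bases on the plus strand of chromosome 18 (61397813 to 61397925), covers all 66 bases of Mir378a and extends 22 and 25 bases beyond it. Its annotated sequence holds the reverse complement of the whole Mir378a hairpin. All reads assigned at this locus were therefore on the minus strand, that of Mir378a and of Ppargc1b.

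The 3 count columns of each file gave very different pictures of the locus. In the sense column Mir378a had 156965 and 269902 counts, and in the antisense column it had 0 in both libraries. The antisense column of Gm25301 held 156966 and 269903 counts, the Mir378a reads plus 1 read in each library. That single read also appeared in the unstranded column of Gm25301, which means that it lay within Gm25301 but was not shared with Mir378a. In the unstranded column Mir378a itself had 0 counts in both libraries, because a read over 2 genes is tallied there as ambiguous. The ambiguous tally of that column was 221369 reads in replicate 1 and 450527 in replicate 2, and Mir378a reads equal 70.9% and 59.9% of it.

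**Figure D2:**
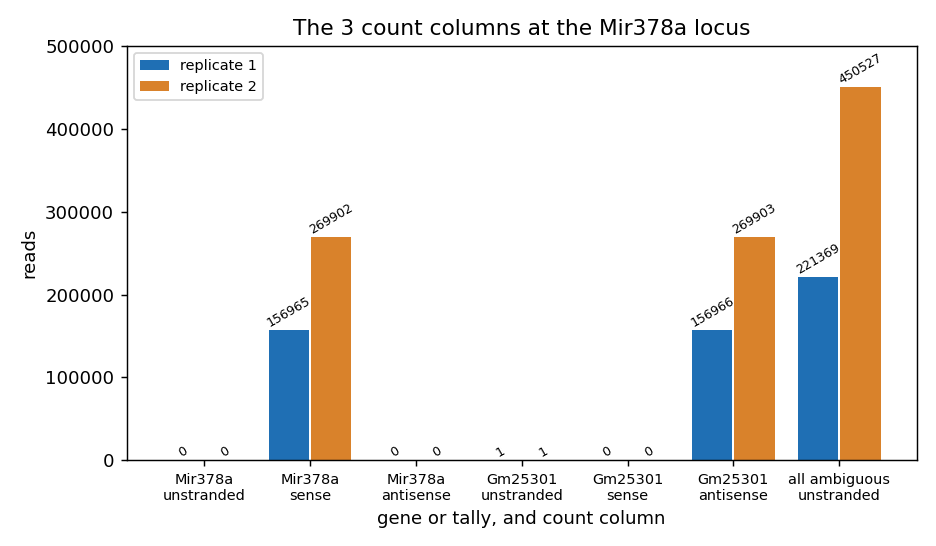
Number of reads for Mir378a and Gm25301 in the unstranded, sense and antisense columns, and for all ambiguous reads of the unstranded column, by library (bars from 0, with the count above each). The reads that the sense column gives to Mir378a appear in the antisense column of Gm25301 and are at 0 or 1 in the unstranded column, where the ambiguous tally reaches 221369 and 450527 reads.

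The pattern at Mir378a was shared by the other miRNA genes annotated face to face. The annotation held 32 such pairs (64 genes), and 27 pairs had sense counts. In replicate 1 these 64 genes had 221369 counts in the sense column and 1 in the unstranded column, and in replicate 2 they had 450530 and 4. Among the 2138 other genes, the sense and unstranded columns were unequal for 8 genes in replicate 1 and 15 in replicate 2, by 21 and 52 reads in all. Antisense counts of those genes were 0.00326% and 0.00301% of their sense counts. The minor members lie in no such pair, and their sense and unstranded counts were identical in both libraries, with 0 antisense counts.

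All 4 family genes were lower in replicate 2 relative to the gene counts, while most tested genes were higher there. The comparison took in the 305 genes whose counts averaged at least 10, among them the 4 family genes but not Gm25301. The median of these genes lay 1.35-fold above in replicate 2, and 99 of them (32.5%) were lower there. Replicate 1 exceeded replicate 2 by 3.10-fold for Mir378c (exact 95% interval 2.15 to 4.49), by 2.81-fold for Mir378b (1.38 to 5.76) and by 2.16-fold for Mir378d (1.74 to 2.69). Adjusted over all 305 genes, the exact conditional binomial test gave p = 1.37e-09 for Mir378c, 0.00431 for Mir378b and 1.10e-11 for Mir378d. The excess for Mir378a was 1.46-fold (1.45 to 1.47), beyond counting error but short of the 2-fold change that a call requires. These tests compare 2 libraries and their counting error, not animals or conditions.

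Against the background of all tested genes, calls toward replicate 1 were few. An adjusted p under 0.05 with a ratio of at least 2 was reached by 103 genes (33.8%), of which 82 (26.9%) were higher in replicate 2 and 21 (6.89%) were higher in replicate 1. Mir378b, Mir378c and Mir378d were 3 of those 21. The median log2 ratio of the 4 family genes was -1.30, beside 0.43 for all tested genes. Only 7 of the 305 genes had a lower log2 ratio than Mir378c, 10 a lower one than Mir378b and 21 a lower one than Mir378d. Of the 130 tested genes in the range of mean counts spanned by the minor members (18 to 172), 8 (6.15%) were called higher in replicate 1, 3 of them the minor members themselves. Without these, 5 of 127 genes (3.94%) were so called, and the median log2 ratio of these 127 genes was 0.76.

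**Figure D3:**
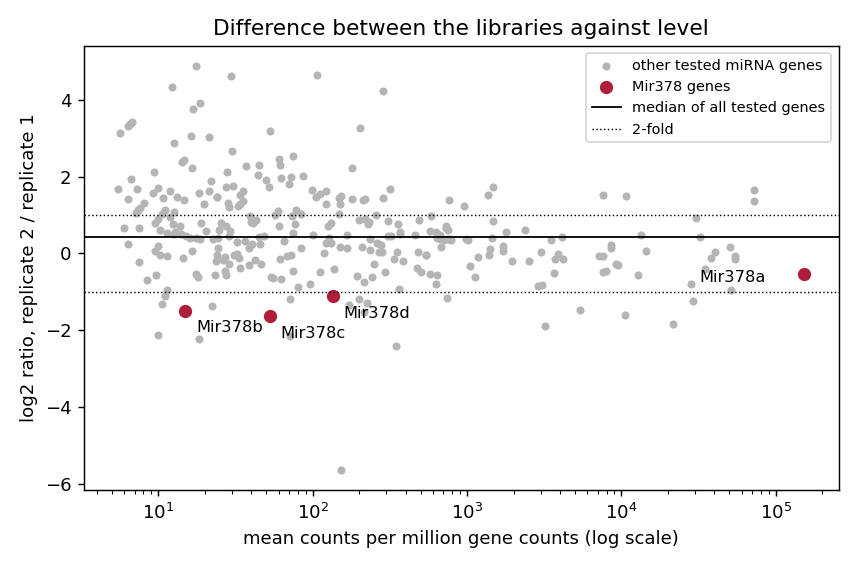
Log2 ratio of replicate 2 over replicate 1 for the 305 tested miRNA genes against their mean CPM on a log axis, with the Mir378 genes in red. The solid line marks the median of 0.43 and the dotted lines a 2-fold difference. Mir378b, Mir378c and Mir378d lie below the lower dotted line, and Mir378a lies between it and the median line.

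The size of these differences changed with the denominator. Scaling by TMM or by DESeq2 size factors, which lowers each log2 ratio by 0.28 or 0.42, moved Mir378a to -0.83 and -0.97 and left the 3 calls in place. Counted per 1000000 of all reads, with multimapping and other tallies included, Mir378a stood at 22786 in replicate 1 and 22489 in replicate 2, a log2 ratio of -0.02. On that scale Mir378c was still called, at -1.10 (adjusted p = 3.98e-05 by the exact test). Mir378b at -0.96 and Mir378d at -0.58 were no longer called. The share of multimapping reads, 80.7% against 71.0%, moved with this difference between the denominators, and its part in the result was not tested.

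**Figure D4:**
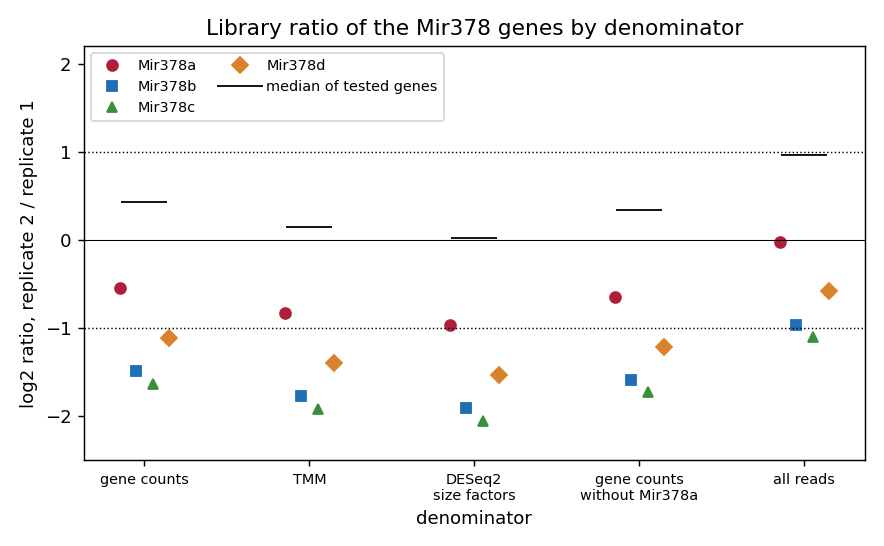
Log2 ratio of replicate 2 over replicate 1 for each Mir378 gene under 5 denominators, with the median of the 305 tested genes as a bar and dotted lines at a 2-fold difference. A change of denominator shifts every gene and the median by the same amount, so all 4 genes lie below the median bar throughout. Mir378a moves from -0.97 with DESeq2 size factors to -0.02 with all reads.

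The balance within the family, which no denominator touches, also differed between the libraries. It still depends on which reads were assigned to a single gene, and the part of that in the difference was not tested. For every 100000 Mir378a reads there were 101 Mir378d reads in replicate 1 and 68.5 in replicate 2, 44.0 and 20.7 Mir378c reads, and 12.1 and 6.30 Mir378b reads. All 3 were thus lower relative to Mir378a in replicate 2. By Fisher's exact test with adjustment over these 3 comparisons, the odds ratio of replicate 1 over replicate 2 was 2.12 for Mir378c (interval 1.47 to 3.07, adjusted p = 0.000109) and 1.48 for Mir378d (1.19 to 1.84, adjusted p = 0.000504). For Mir378b it was 1.92 (0.946 to 3.94, adjusted p = 0.0565), which did not pass. Among the minor members themselves, none of 3 pairs passed: the odds ratio was 1.43 for Mir378c against Mir378d (0.931 to 2.21), 1.30 for Mir378b against Mir378d (0.616 to 2.76) and 0.907 for Mir378b against Mir378c (0.404 to 2.05), with adjusted p by Fisher's exact test of 0.285, 0.729 and 0.850. The upper bounds of these intervals all lie above 2, so they do not show that the minor members moved alike.

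Sequence sharing was also common among tested genes outside the family. A run of at least 18 bases in another counted hairpin was held by Mir378a, Mir378b and Mir378c but not by Mir378d. Of all 305 tested genes, 85 (27.9%) held such a run. The share was 8 of 21 (38.1%) for genes called higher in replicate 1, 6 of 18 (33.3%) without the Mir378 genes, 10 of 82 (12.2%) for genes called higher in replicate 2 and 67 of 202 (33.2%) for genes not called. The median log2 ratio was 0.11 with such a run and 0.59 without. The genes called higher in replicate 1 that hold one include Mir26a-1, Mir26a-2, Mir16-2 and Mir199a-2, named after their values were seen.

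With 2 libraries, likeness to Mir378a can be read only from the library ratio. Among the 169 other genes that averaged at least 100 counts, the 5 with the nearest log2 ratio to that of Mir378a (-0.55) were Mir100 (-0.55), Mir872 (-0.56), Mir193a (-0.53), Mir10a (-0.51) and Mir204 (-0.59). Mir100, the most abundant of these, had 15317 CPM and 10436 CPM in the 2 libraries. Mir204, the least abundant, had 233 and 155 CPM.

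Other miRNAs described as acting on oxidative or mitochondrial metabolism were called at about the share of all tested genes. Of 21 listed genes 20 were matched by symbol and 15 were tested. With library totals, calls toward replicate 2 numbered 4 and those toward replicate 1 numbered 0, beside 26.9% and 6.89% of all tested genes. The list had a median log2 ratio of 0.47. The 4 called genes were Mir149, Mir210, which is induced by low oxygen, and the slow fibre miRNAs Mir208b and Mir499. The 4 most abundant genes of the list were Mir23a at 40390 ± 493 CPM, Mir149 at 10727 ± 7232 CPM, Mir27b at 7201 ± 213 CPM and Mir193b at 1710 ± 166 CPM (SD, n = 2). Mir149 had 4858 counts in replicate 1 and 34487 in replicate 2, whereas Mir23a and Mir27b had log2 ratios of 0.02 and -0.06. TMM and DESeq2 size factors gave the same counts of 4 and 0, with medians of 0.18 and 0.05, and all reads as the denominator gave 7 and 0.

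Markers of other tissues in which Mir378a is known to be abundant had counts in both libraries. The 4 brown fat miRNAs, Mir193b, Mir455, Mir365-1 and Mir365-2, summed to 1935 CPM in replicate 1 and 2295 CPM in replicate 2. None was called with library totals, TMM or DESeq2 size factors, and 2 were called higher in replicate 2 with all reads as the denominator. The liver miRNA Mir122 stood at 10.4 CPM (9 counts) and 95.1 CPM (207 counts) and was called higher in replicate 2, the opposite direction to the Mir378 genes. The part of these tissues in the Mir378a level was not tested.

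Markers of cell types other than muscle fibres, and of slow fibres, differed between the libraries in both directions. Calls named here are with library totals alone. The smooth muscle pair Mir143 and Mir145a summed to 75404 CPM in replicate 1 and 37985 CPM in replicate 2, with Mir145a called higher in replicate 1, as the minor Mir378 genes were. The 4 matched leukocyte miRNAs summed to 3619 and 4085 CPM, with Mir223 and Mir142 called higher in replicate 1. The endothelial Mir126a stood at 47279 and 52968 CPM and the erythroid pair Mir144 and Mir451a at 230 and 316 CPM, with no call. Slow fibre Mir208b and Mir499 summed to 181 and 956 CPM, both called higher in replicate 2. Whether cell makeup has a part in the ratios of the Mir378 genes was not tested.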

How the data were processed

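The authors deposited whole-number read counts per miRNA gene, 1 file per library with 3 headerless count columns, on mm10 and GENCODE M21 per the deposited README. Which aligner and counter were run is not given in the sources used here. Judged from the values, the columns are unstranded, sense and antisense in that order, and levels were taken from the sense column. The 4 tallies entered neither library sizes nor tests. All 2202 identifiers matched the annotation. The genes, lists and tests were chosen with earlier results of these data known.

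CPM values are counts per 1000000 gene counts. A count of 0 allows up to 3 counts. Reads carry no molecular identifiers and are not independent molecules, so intervals cover counting error alone. Each gene with a mean of at least 10 counts entered an exact conditional binomial test (two-sided) of one library against the other, given both totals, and p-values were adjusted by Benjamini-Hochberg over all tested genes. A call needed a ratio of at least 2 and an adjusted p under 0.05. The test was run on simulated counts that varied by counting error alone, as the test assumes, so that check does not cover any further spread between real libraries. The Fisher tests within the family and the comparison of shared 18-base runs were added after the values were seen. The genes named by rule are the 5 members, the 5 nearest to Mir378a by level and by ratio, and the lists' most abundant genes. Others are named as cell type or tissue markers, for a call within a list or for a shared run of bases, some after their values were seen. Alternatives were the unstranded column, other filters, no ratio threshold, TMM (edgeR 4.0.16), DESeq2 1.42.0 size factors, other totals and each library left out. Hairpins came from the GENCODE M21 transcripts and mature sequences from RefSeq (GRCm38.p6). Calculations used Python 3.11.15, SciPy 1.17.1 and R 4.3.3. No genome sequence was used.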

Additional observations from a re-analysis of the deposited data

How the results depend on the processing

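The levels depended on the denominator and the column. In the unstranded column the Mir378a level was 0 CPM and the family share 0.0266%. With all reads as the denominator, the mean was 22638 per 1000000 reads for Mir378a, 2.09 for Mir378b, 7.34 for Mir378c and 19.2 for Mir378d, and the family share was 2.27%. Without the top 10 other genes in the totals, Mir378a stood at 302394 CPM. TMM and DESeq2 size factors moved no level by more than 1 SD. In single libraries the level ranged from 123976 to 181375 CPM for Mir378a, from 7.81 to 22.0 for Mir378b, from 25.7 to 79.7 for Mir378c and from 85.0 to 184 for Mir378d, and the family share from 12.4% to 18.2%.

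The 4 family genes kept a negative log2 ratio under every alternative that gave one. With all reads as the denominator, Mir378b (-0.96) and Mir378d (-0.58) lost their calls. Without a ratio threshold Mir378a (-0.55) was called as well. Mir378a has no ratio in the unstranded column, and Mir378b and Mir378c have none with a mean of at least 100 counts. The genes called numbered 50 (13 higher in replicate 1, 37 in replicate 2) at that stricter filter and 207 (64 and 143) without a ratio threshold. Those higher in replicate 1 numbered 32 with TMM, 39 with DESeq2 size factors and 9 with all reads, where 138 were higher in replicate 2. Calls toward replicate 2 were 79.6% of all calls with library totals, 67.3% with TMM, 59.8% with DESeq2 size factors and 93.9% with all reads. No paired analysis was possible because the series has 1 group. The counts of Mir378b, 19 and 17, limit its precision.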
